A study of Mus musculus with 126 samples.

Results

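1700080O16Rik, 4930550L24Rik, Gm773 and AU015228 are 4 of the 23420 genes in the deposited RNA-seq count table of mouse embryonic stem cells. They were selected on measured values: each was nearly silent in wild type cells given DMSO and stood far higher in cells that lacked DNA methyltransferases and also received Trichostatin A. The comparison of those 2 groups therefore chose the genes and is described without a test. The study set a genotype against a treatment, with 2 libraries in each of 4 groups. The wild type cells were of the J1 embryonic stem cell line, and the TKO cells, labelled with the same strain, were Dnmt1-/-, Dnmt3a-/- and Dnmt3b-/-. Cells of either genotype received 5 ng/µl Trichostatin A (TSA) or, as the control, 0.0033% DMSO, for 36 h in both cases. Where 4 values follow each other below, the groups come in the order wild type with DMSO, wild type with TSA, TKO with DMSO, and TKO with TSA. All groups shared gelatin-coated dishes and a medium with serum and leukaemia inhibitory factor. The labels call the libraries replicates but do not say whether they came from separate cultures or how many TKO clones were used, so p-values measure only the spread between these libraries, which may be technical. The other 118 of the 126 samples, on chromatin and on transcription factor binding, were not analysed here.

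DNA methylation of CpG dinucleotides at promoters is associated with stable silencing, and Dnmt1 maintains it while Dnmt3a and Dnmt3b add it anew. Histone deacetylases remove acetyl groups from histone tails, and TSA inhibits them, so that acetylation builds up. Many genes with a normal role in germ cells, among them a group of testis genes on the X chromosome, are kept silent by promoter methylation in other cells. RefSeq lists each of the 4 as protein coding. It gives mage-k1 as a synonym of 4930550L24Rik, which places that gene by name in the MAGE family, known for testis and tumour expression. 1700080O16Rik lies on the X chromosome at 51968695 to 51972772 (minus strand, 4 exons), Gm773 at 56189827 to 56212881 (minus strand, 8 exons) and 4930550L24Rik at 58911461 to 58920304 (plus strand, 2 exons). AU015228 is a gene with 1 exon on chromosome 2, at 130100394 to 130103375 on the plus strand. Coordinates are those of the deposited table, whose build is mm10 per the submitters' processing notes. None of the exon bases of the 4 genes lies inside an exon of another gene in the table.

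Promoter sequences are shown because methylation acts on CpG dinucleotides, which are printed in capitals. They run from 250 bases before to 50 bases after the gene start of the promoter annotation, which is also the start in the deposited gene models, on the gene's own strand, and are taken from RefSeq (GRCm38.p6), that is from the reference strain and not from the J1 cells. A sequence was found for 3 of the 4 genes, and AU015228 is named only. The full RefSeq gene bounds reach 730 bases further upstream for 1700080O16Rik, 2105 for 4930550L24Rik and 5 for Gm773, so the windows and the distances below describe 1 start per gene, and sequence around other starts was not analysed here.
1700080O16Rik (chrX:51972723-51973022, minus strand): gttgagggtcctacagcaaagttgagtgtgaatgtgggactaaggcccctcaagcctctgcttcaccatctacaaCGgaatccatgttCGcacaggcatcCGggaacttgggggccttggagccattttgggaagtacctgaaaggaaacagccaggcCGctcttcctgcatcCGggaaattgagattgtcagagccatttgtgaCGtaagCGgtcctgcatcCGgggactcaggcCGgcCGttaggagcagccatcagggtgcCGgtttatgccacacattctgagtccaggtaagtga
4930550L24Rik (chrX:58911211-58911510, plus strand): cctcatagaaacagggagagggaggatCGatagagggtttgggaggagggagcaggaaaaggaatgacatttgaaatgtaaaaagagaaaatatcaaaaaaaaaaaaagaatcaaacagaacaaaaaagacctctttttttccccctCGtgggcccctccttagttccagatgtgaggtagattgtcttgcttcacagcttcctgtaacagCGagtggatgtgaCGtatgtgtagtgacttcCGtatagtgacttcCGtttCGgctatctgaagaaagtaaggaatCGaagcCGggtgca
Gm773 (chrX:56212832-56213131, minus strand): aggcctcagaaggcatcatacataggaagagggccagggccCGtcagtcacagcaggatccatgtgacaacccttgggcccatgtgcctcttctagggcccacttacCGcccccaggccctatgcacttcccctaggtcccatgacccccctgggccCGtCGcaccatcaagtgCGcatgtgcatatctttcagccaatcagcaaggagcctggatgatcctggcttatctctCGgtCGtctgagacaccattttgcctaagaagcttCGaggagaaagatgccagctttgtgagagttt
The promoter of 1700080O16Rik holds 11 CpG, that of 4930550L24Rik 9 and that of Gm773 8. Among 32544 mouse promoters of the same length, 58.3%, 53.9% and 51.1% hold fewer, so the 3 stand near the middle of all promoters. The observed over expected CpG ratio was 0.488, 0.662 and 0.34 in the same order, against a median of 0.387 over all promoters. Genes that were near silent in wild type DMSO, meaning at most 3 counts in each of its libraries, had a lower median of 3 CpG over 4964 promoters, where all promoters had a median of 7. The promoters of 1700080O16Rik, 4930550L24Rik and Gm773 each lie above the upper quartile of 5 CpG of those near-silent genes. They do not stand apart from the near-silent genes that reached 10 CPM (defined below) in TKO TSA. Over 10 promoters of that set, these 3 included, the median was 7.5 CpG and the quartiles were 6.25 and 9.

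**Figure D1:**
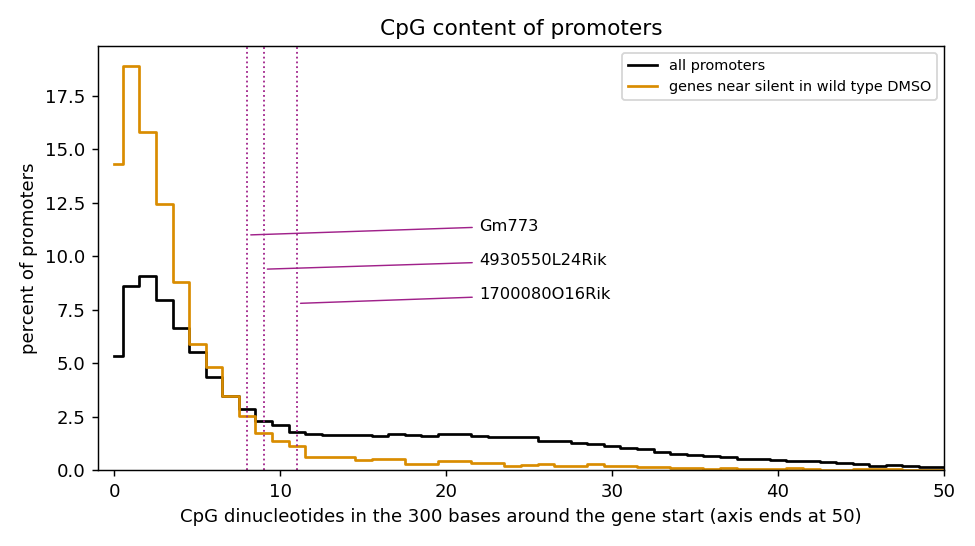
CpG dinucleotides in the 300 bases around the gene start (x axis) against the percent of promoters with that number (y axis), for all 32544 promoters and for 4964 genes near silent in wild type DMSO. Dotted lines mark Gm773 at 8, 4930550L24Rik at 9 and 1700080O16Rik at 11 CpG, to the right of the bulk of near-silent genes.

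Short motifs were looked for on both strands of these promoters. Of the listed motifs, the short NRF1 motif TGCGCA occurred in Gm773, 78 bases before the start, and the SP1 motif GGGCGG occurred in Gm773 on the opposite strand, 144 bases before it. The shares of all promoters with a match were 7.79% and 35.9%. No match to the GABPA motif CCGGAAGT (3.92% of promoters), the MAX motif CACGTG (7.17%), the YY1 motif AAGATGGC (2.77%), the E2F6 motif TCCCGC (20.1%) or the cAMP element TGACGTCA (1.8%) occurred in the 3 windows. After the sequences were seen, 3 shorter motifs were added. The shortened cAMP element TGACGT occurred in 1700080O16Rik as catttgTGACGTaagcgg, 48 bases before the start, and in 4930550L24Rik as tggatgTGACGTatgtgt, 29 bases before it, where 7.55% of promoters hold it. The ETS core CGGAAG occurred at 2 positions in 4930550L24Rik on the opposite strand (17.0% of promoters). CCATNTT, a YY1 core, occurred at 2 positions in 1700080O16Rik and at 1 in Gm773, there across the start (16.1% of promoters). CGGAAG overlaps the GABPA motif, CCATNTT the YY1 motif and TGACGT the cAMP element. These matches describe letters in the windows, and binding was not analysed here.

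Across the 8 libraries, total counts ran from 13280631 to 15542527, so that 3 counts in a library correspond to 0.183 to 0.243 normalised CPM (counts per 1000000 counts after scaling). Such limits cover counting error only, and so do the exact 95% counting intervals given below. Calls are made at adjusted p-values under 0.05 from edgeR's quasi-likelihood test over 15822 genes, which include the 4. Dnmt1, Dnmt3a and Dnmt3b were each lower in TKO than in wild type in DMSO, at log2 differences of -1.78, -2.996 and -3.72 (adjusted p from edgeR 1.47e-06, 1.47e-06 and 5.35e-08), as labelled, though reads remained. H1f0, a linker histone gene that responds to deacetylase inhibitors, rose with TSA by 1.27 on the log2 scale in wild type cells and by 1.12 in TKO cells, and Cdkn1a, a cell cycle inhibitor gene, rose by 0.77 and 1.04. The summed level of 8 embryonic stem cell markers was 3293 to 3710 CPM in wild type and 4143 to 4501 in TKO cells with DMSO, and TSA took these sums to 1895 to 2124 and to 1851 to 2174. The summed level of 7 fibroblast or mesenchymal markers was 230.8 to 456 CPM (DMSO) and 278 to 485 (TSA) in wild type cells, but 17.2 to 31.2 (DMSO) and 35.9 to 43.5 (TSA) in TKO cells. Tagln carried most of the wild type sums, and went from 252 CPM in wild type DMSO to 4.81 in TKO TSA. Between those groups Col1a1, Col1a2, Col3a1 and Acta2 also fell, while Thy1 rose from 4.47 to 10.8 CPM and Postn from 0.610 to 1.65. Dazl, Ddx4, Prdm1, Nanos3 and Kit, the germ cell markers, summed to 89.8 to 115 CPM (DMSO) and 144 to 170 (TSA) in wild type cells. In TKO cells they summed to 257 to 284 (DMSO) and 379 to 396 (TSA). These germ cell markers did not move together. Between wild type DMSO and TKO TSA, Dazl went from 10.4 to 263 CPM and Kit from 33.1 to 80.4. Ddx4 fell from 22.6 to 7.97 CPM, Prdm1 was at 30.9 and 29.7, and Nanos3 at 5.37 and 6.49. The 4 neural markers summed to 186 to 191 (DMSO) and 73.2 to 89.9 CPM (TSA) in wild type cells, and to 227 to 246 (DMSO) and 69.2 to 73.6 (TSA) in TKO cells. Tubb3 carried most of the neural sums, at 161 CPM in wild type DMSO. The 5 trophoblast markers summed to 9.16 to 14.4 (DMSO) and 34.0 to 39.7 CPM (TSA) in wild type cells, and to 3.08 to 4.15 (DMSO) and 29.8 to 30.3 (TSA) in TKO cells. With TSA in wild type cells Cdx2, Elf5 and Gcm1 rose, while Eomes went from 7.84 to 5.54 CPM. The 6 extraembryonic endoderm markers summed to 12.1 to 14.3 (DMSO) and 16.6 to 18.4 CPM (TSA) in wild type cells, and to 24.7 to 27.8 (DMSO) and 35.0 to 39.1 (TSA) in TKO cells. Tpbpa, a trophoblast marker, was at 0 counts in each group, and no other listed marker was at 0 in any group. These sums move with genotype or treatment beside the results below, and their part in them was not tested. In such bulk libraries, more cells of a type and more RNA per cell cannot be told apart.

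The 4 genes showed 2 patterns across the groups. 1700080O16Rik, 4930550L24Rik and Gm773, all on the X chromosome, were already high in TKO DMSO and reached their highest level in TKO TSA. AU015228 was low in TKO DMSO and high with TSA in either genotype. 1700080O16Rik had 0 and 0 counts with DMSO and 1 and 1 with TSA in wild type cells, while its TKO counts were 76 and 82 with DMSO and 473 and 597 with TSA (replicates 1 and 2). In normalised CPM the TKO libraries stood at 5.20 and 5.97 with DMSO, and TSA took them to 32.0 and 37.5. Its 4 TKO libraries lay above its 4 wild type libraries, and the TSA libraries of TKO lay above the DMSO libraries of TKO.

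4930550L24Rik had 1 and 0 counts with DMSO and 12 and 19 with TSA in wild type cells, while its TKO counts were 149 and 119 with DMSO and 935 and 1258 with TSA. As normalised CPM these were 0.0714 and 0, then 0.733 and 1.29, then 10.2 and 8.66, then 63.3 and 79.0. The groups did not overlap, and they rose in the order in which they are given. Gm773 had 0 and 0 counts with DMSO and 5 and 4 with TSA in wild type cells, while its TKO counts were 25 and 44 with DMSO and 178 and 326 with TSA. Its normalised CPM were 0 and 0, 0.305 and 0.272, 1.71 and 3.20, and 12.0 and 20.5. The same order held without overlap, and replicate 2 exceeded replicate 1 by 1.87 times in TKO DMSO and 1.70 times in TKO TSA.

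AU015228 had 4 and 1 counts with DMSO and 217 and 448 with TSA in wild type cells, while its TKO counts were 4 and 11 with DMSO and 949 and 1916 with TSA. Its normalised CPM were 0.285 and 0.0811, 13.3 and 30.4, 0.274 and 0.800, and 64.2 and 120. The DMSO libraries of the genotypes overlapped, and the TSA libraries of either genotype lay far above them. Replicate 2 was above replicate 1 by 2.30 times (wild type, TSA), 2.92 times (TKO, DMSO) and 1.87 times (TKO, TSA), the widest spread of the 4 genes in each of those groups.

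**Figure D2:**
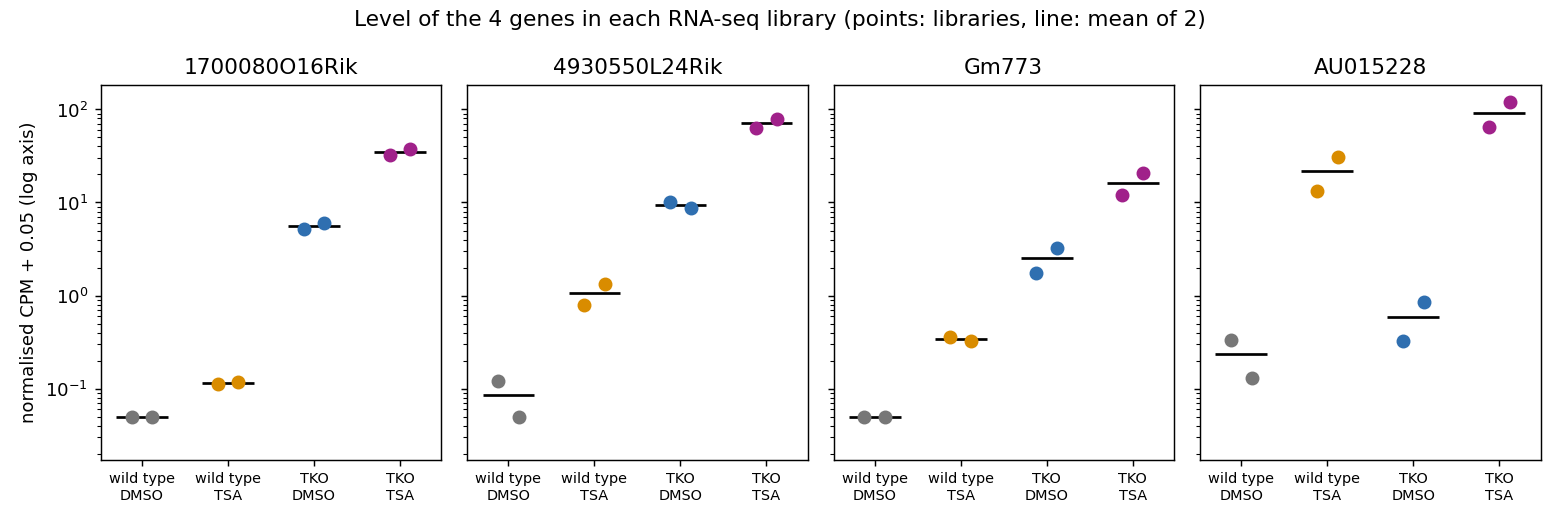
Normalised CPM plus 0.05 on a log axis (y) for each of 8 libraries in 4 groups (x), 1 panel per gene, with points for libraries and a line for the mean of 2. The 3 X-linked genes climb across the groups from left to right, whereas AU015228 is low in both DMSO groups and high in both TSA groups.

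Compared per kilobase of exon, as RPKM, the mean levels in TKO TSA were 45.2 ± 7.08 for 4930550L24Rik, 30.9 ± 13.3 for AU015228, 23.9 ± 2.67 for 1700080O16Rik and 17.1 ± 6.27 for Gm773 (SD, n = 2). These levels were above those of 91.7%, 86.9%, 83.2% and 78.1% of all genes in the table. Neighbours in this order differed by less than the sum of their SDs. In TKO DMSO the RPKM were 5.997 ± 0.691, 0.180 ± 0.125, 3.84 ± 0.373 and 2.58 ± 1.11 in the same order of genes, and with TSA in wild type cells they were 0.644 ± 0.251, 7.33 ± 4.08, 0.0444 ± 0.00335 and 0.303 ± 0.0249. AU015228 thus had the highest RPKM of the 4 genes under TSA alone and the lowest under the knockout alone.

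The effect of both changes, which chose the genes, is given as a description. Against the limit of 3 counts per library in wild type DMSO, 1700080O16Rik was at least 152-fold higher and Gm773 at least 71.1-fold higher in TKO TSA. 4930550L24Rik, with 1 count in wild type DMSO, was 1882-fold higher, with a counting interval from 337 to 74363. AU015228 was 503-fold higher. Among 2144 tested genes below 1 CPM in wild type DMSO, the fitted log2 fold change ranked 1700080O16Rik first at 11.98, Gm773 second at 10.89, 4930550L24Rik next at 10.58 and AU015228 at rank 15 with 8.86. AU015228 ranked 1 by its level in TKO TSA. Just below it by fold change were Ctag2 at 8.83, Phf11a at 8.77 and Mageb18 at 8.67, with TKO TSA levels of 3.88, 3.73 and 3.46 CPM. Between 4930550L24Rik and AU015228 lay 11 genes, among them Cd200r2 at 10.06 and Slc34a2 at 10.02. Ctag2 and Mageb18 belong to families of cancer-testis genes with similar copies, so their counts are uncertain.

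The first question was which single change raised each gene more. TKO DMSO was set against wild type TSA, the one contrast that uses neither of the groups that chose the genes. The 3 X-linked genes were higher after loss of the methyltransferases alone, and AU015228 was higher after TSA alone. 1700080O16Rik was 86.6-fold higher in TKO DMSO (counting interval 23.6 to 721, log2 fold change 6.26, edgeR adjusted p 3.02e-06). For 4930550L24Rik the difference was 9.31-fold (log2 fold change 3.23 ± 0.28 SE, edgeR adjusted p 6.45e-06), and for Gm773 it was 8.51-fold (3.04 ± 0.56, edgeR adjusted p 0.00114). AU015228 was 40.7-fold lower in TKO DMSO than in wild type TSA (-5.34 ± 0.61, edgeR adjusted p 3.66e-05). Of all 15822 genes tested, 28.0% were called higher and 29.6% lower in this contrast, so a call alone is common and the sizes carry the description. Without wild type TSA replicate 2 the log2 fold change of AU015228 was -4.62, and without TKO DMSO replicate 1 or 2 it was -4.75 or -6.27. Scaling by total counts moved the median of all genes from 0.00 to -0.18 and the split of calls from 4427 higher and 4688 lower to 3009 and 5874. The calls and directions of the 4 genes held under that scaling.

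**Figure D3:**
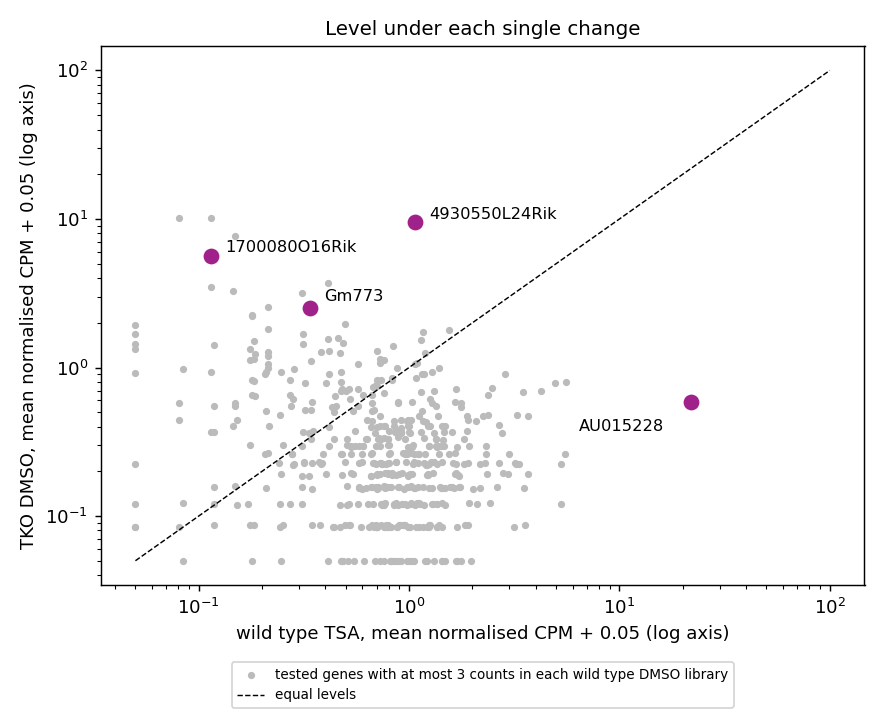
Mean normalised CPM plus 0.05 under TSA alone (wild type TSA, x, log axis) and under the knockout alone (TKO DMSO, y, log axis), with grey points for 535 tested genes near silent in wild type DMSO and coloured points for the 4 genes. 1700080O16Rik, 4930550L24Rik and Gm773 lie above the dashed line of equal levels, and AU015228, at 21.9 and 0.537 CPM, lies far below it.

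Each single change was then compared with wild type DMSO, a group that had been used in choosing the genes, so that rises from it were partly set by the choice. TSA in wild type raised AU015228 119-fold (log2 fold change 6.78 ± 0.74 SE, edgeR adjusted p 5.23e-05) and 4930550L24Rik 26.3-fold (counting interval 4.38 to 1071, edgeR adjusted p 0.00113). Gm773 rose at least 1.26-fold, from 0 counts to 5 and 4 (edgeR adjusted p 0.0407), a call that was lost without any of the 4 wild type libraries (edgeR adjusted p 0.134, 0.112, 0.0839 and 0.0725). 1700080O16Rik, at 1 count in each wild type TSA library, was not called (edgeR adjusted p 0.172), and no fold can be given at this depth. Over all genes tested, 27.0% were called higher and 25.9% lower. By total counts the calls in this contrast were 5812 higher and 2433 lower, against 4266 and 4092, and the median of all genes was 0.22 instead of 0.01. Without wild type DMSO replicate 1, which holds the only count of 4930550L24Rik, the log2 fold changes of 4930550L24Rik and AU015228 were 6.89 and 7.93. Without replicate 2 that of 4930550L24Rik was 3.66, and without wild type TSA replicate 2 that of AU015228 was 6.06.

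Loss of the methyltransferases in DMSO raised the 3 X-linked genes. 1700080O16Rik rose at least 24.4-fold (edgeR adjusted p 1.13e-05), Gm773 at least 10.7-fold (edgeR adjusted p 0.00104) and 4930550L24Rik 249-fold (counting interval 44.3 to 9872, edgeR adjusted p 8.10e-06). The last log2 fold change, 7.67, was 10.10 without wild type DMSO replicate 1 and 6.89 without replicate 2. AU015228, at 0.183 ± 0.145 CPM with the enzymes and 0.537 ± 0.372 without them (SD, n = 2), showed a 2.93-fold difference with overlapping libraries that was not called (edgeR adjusted p 0.544). Its counting interval, 0.963 to 9.80, leaves a rise of several fold undetectable at this depth. Among all genes tested 9.63% were called higher and 10.7% lower.

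The second change, added to the first, was followed in 2 contrasts that use TKO TSA, the other group behind the choice. Rises into TKO TSA were favoured by the choice, so the p-values of the 4 genes in these contrasts are not independent of it. TSA in TKO raised the 3 X-linked genes by similar factors: 6.22-fold for 1700080O16Rik (edgeR adjusted p 3.97e-06), 7.54-fold for 4930550L24Rik (edgeR adjusted p 1.89e-06) and 6.62-fold for Gm773 (edgeR adjusted p 9.75e-05). The counting intervals of these factors overlap, at 5.29 to 7.44, 6.65 to 8.61 and 5.24 to 8.81. AU015228 rose 172-fold (edgeR adjusted p 4.00e-06). Its log2 fold change of 7.42 was 6.83 without TKO DMSO replicate 1 and 8.35 without replicate 2. TSA in TKO raised 30.8% of all genes tested, and the calls, 4872 higher and 4412 lower, became 5908 and 3267 with total counts, where the median of all genes was 0.19 instead of 0.04. Loss of the methyltransferases in TSA raised 1700080O16Rik 542-fold (counting interval 150 to 4478), 4930550L24Rik 70.3-fold and Gm773 56.3-fold (edgeR adjusted p 6.41e-07, 6.41e-07 and 5.91e-05). AU015228 rose 4.22-fold (log2 fold change 2.09 ± 0.35 SE, edgeR adjusted p 0.00272). Leaving out each library moved this log2 fold change between 1.56 (without TKO TSA replicate 2) and 2.80 (without wild type TSA replicate 2). DESeq2 put it at 2.07, with an adjusted p of 0.0373 from its own test. In that contrast 10.0% of all genes were called higher. For AU015228 the genotype difference was thus called in TSA and not in DMSO, and the difference between those effects is the product test given below.

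Whether the joint rise exceeds the sum of the single rises was asked on the CPM scale. It did for each of the 4 genes, and the single rises together came to 14.6% to 23.9% of the joint rise. For 1700080O16Rik the single rises were 0.0645 CPM with TSA and 5.58 CPM with the knockout, which add to 5.65, and the joint rise was 34.7 CPM. The excess was 29.1 CPM (95% interval 22.9 to 35.3, adjusted p 0.00347, with the variance of the edgeR fit). For 4930550L24Rik, 0.976 and 9.39 CPM add to 10.4, against a joint rise of 71.1 and an excess of 60.7 CPM (47.9 to 73.5, adjusted p 0.00227 on the same variance).

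Gm773 gave single rises of 0.289 and 2.46 CPM, a joint rise of 16.3 and an excess of 13.5 CPM (8.27 to 18.8, adjusted p 0.0262 on the edgeR variance). AU015228 gave 21.7 CPM with TSA and 0.354 with the knockout, a joint rise of 92.1 and an excess of 70.1 CPM (36.2 to 104, adjusted p 0.0482). The excess was positive in each of the 16 choices of 1 library per group, from 25.97 to 32.2 CPM for 1700080O16Rik, 51.8 to 69.7 for 4930550L24Rik, 8.54 to 18.5 for Gm773 and 33.0 to 107 for AU015228. Over the genes tested 1.16% showed a called positive excess, 184 in number. Because TKO TSA and wild type DMSO chose the genes and enter this contrast, a positive excess was favoured by the choice. Single rises whose folds multiply exactly also leave a positive excess over the sum.

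The calls for Gm773 and AU015228 rest on single libraries. For Gm773 the call was lost without TKO DMSO replicate 1 or 2 (adjusted p 0.0546 and 0.0582 on the edgeR variance) and without TKO TSA replicate 1 or 2 (0.0589 and 0.151). For AU015228 it was lost without wild type DMSO replicate 1 (0.0606), TKO DMSO replicate 1 or 2 (0.095 and 0.116) and TKO TSA replicate 1 or 2 (0.0825 and 0.233). Without TKO TSA replicate 2 the excess of AU015228 was 41.6 CPM. Upper quartile scaling or total counts also ended the call of AU015228, with adjusted p of 0.0565 and 0.0541. 1700080O16Rik and 4930550L24Rik kept their calls under the 12 alternatives run, with adjusted p up to 0.042 and 0.0372.

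**Figure D4:**
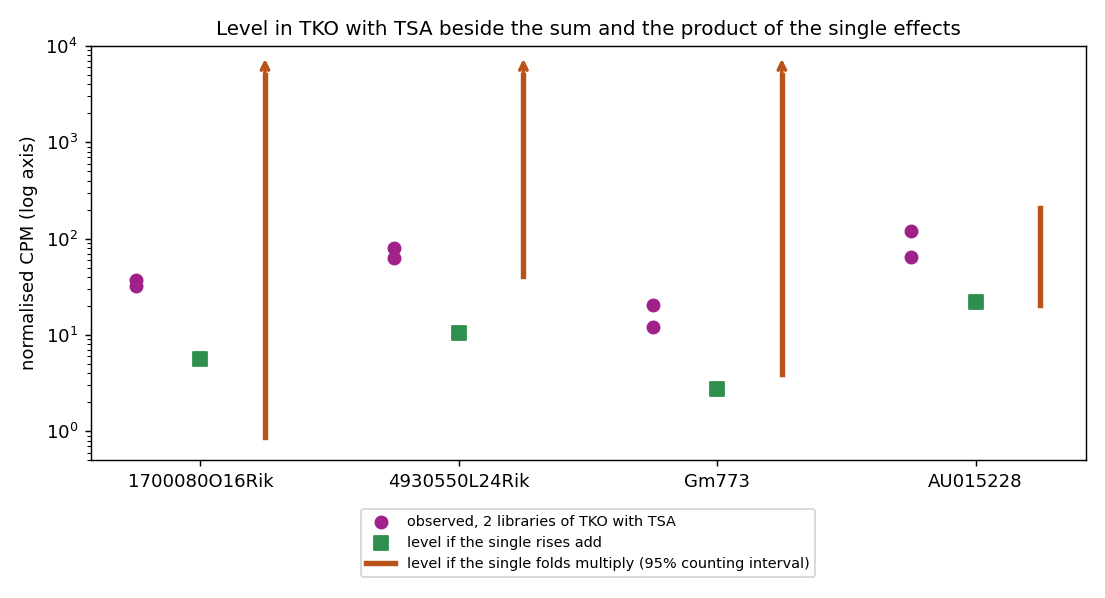
For each gene (x), normalised CPM on a log axis (y): the 2 libraries of TKO TSA (circles), the level at which the single rises add (square) and the 95% counting interval of the level at which the single folds multiply (bar, with an arrow where it runs past 5000 CPM). Each circle lies above its square, at 5.65, 10.4, 2.74 and 22.2 CPM, and within the span of its bar.

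Whether the joint effect exceeds the product of the single folds was asked by the interaction term on the log2 scale. None of the 4 genes was called, in either direction. The fitted interaction was -0.45 for 1700080O16Rik, -1.52 for 4930550L24Rik, -2.39 for Gm773 and 0.64 for AU015228. Its uncertainty is given below as counting intervals, because an SE worked back from the test can be too small at counts near 0. The edgeR adjusted p were 0.806, 0.551, 0.644 and 0.919, and the unadjusted p were 0.476, 0.165, 0.252 and 0.733, so 0 of 4 passed without adjustment as well. DESeq2 called 0 of 4. Among all genes tested 2302 had an unadjusted p below 0.05. After adjustment 1.35% of all genes tested were called, 139 of them positive, for a total count of 213. That count ran from 9 without TKO DMSO replicate 2 to 392 without wild type DMSO replicate 2, and DESeq2 called 401.

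The depth in wild type DMSO limits this test. With 0 pooled counts there, the fitted interactions of 1700080O16Rik and Gm773 depend on the prior count of the fit and turn positive, to 2.06 and 1.03, with a prior count of 2. That of 4930550L24Rik turns to 0.20, and that of 1700080O16Rik is 0.43 in DESeq2. From pooled counts, the ratio of the joint fold to the product of the single folds was at most 39.4 for 1700080O16Rik and at most 4.13 for Gm773 (upper ends of 95% counting intervals that start at 0). It was 0.288 for 4930550L24Rik (0.00703 to 1.74) and 1.56 for AU015228 (0.443 to 4.55). The interval of each gene holds 1, the value of an exact product, and such intervals leave out the spread between libraries. For AU015228 the product of the single folds corresponds to 64.0 CPM, beside 92.3 ± 39.7 CPM measured (SD, n = 2), and the ratio ran from 0.214 to 9.47 over the 16 choices of 1 library per group. Without wild type DMSO replicate 1 its interaction was -0.49. A joint effect above, at or below the product could not be distinguished for these 4 genes at this depth.

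The genes were also placed among all genes near silent in wild type DMSO. Of the 7472 such genes, 535 passed the filter on low counts, which a gene near silent in 1 group passes through the groups where it is higher. AU015228, with 4 counts in 1 wild type DMSO library, falls just outside this set. The median level of the 7472 genes was 0 CPM in each of the 4 groups. Only 14 reached 10 CPM in TKO TSA, and 8 of those lie on the X chromosome. That chromosome holds 4.38% of the genes in the table and 438 of the 7472. The 8 include 1700080O16Rik, 4930550L24Rik and Gm773, which were chosen for their level in TKO TSA. 4930550L24Rik ranked 1, 1700080O16Rik ranked 2 and Gm773 ranked 8 by level in TKO TSA. Pramel3, Pet2, Magea8 and Magea5, named after their values were seen, stood between 1700080O16Rik and Gm773 at 30.7, 25.9, 24.6 and 22.7 CPM. Sost, which encodes an inhibitor of Wnt signalling and was named in the same way, followed at 21.5 CPM, with 5.46 CPM under TSA alone and 0.212 under the knockout alone. Of the 14, 9 were below 1 CPM with TSA alone and 4 were below 1 CPM with the knockout alone. Clvs1, also named after its values were seen, was below 1 CPM under both single changes and at 14.3 ± 0.578 CPM (SD, n = 2) in TKO TSA.

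Likeness was measured by Pearson's r of log2(normalised CPM + 0.5) over the 8 libraries, which share 4 groups of 2 and are not independent points, so r is a description. Between any 2 of the 3 X-linked genes r was 0.983. Between AU015228 and 1700080O16Rik, 4930550L24Rik and Gm773 it was 0.495, 0.607 and 0.622. The genes most like 1700080O16Rik were Magea10 (r 0.999), a MAGE gene of the X chromosome, Gm595 (0.998) and Pet2 (0.995). Most like 4930550L24Rik were Fam122b (0.996), 1700018B24Rik (0.995) and Arfgef1 (0.993). Fam122b and Arfgef1 had the same order of groups over a far smaller range, from 55.1 to 104 CPM and from 88.0 to 134 CPM, while 1700018B24Rik ran from 0.269 to 34.5 CPM.

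Gm773 was most like Trpd52l3 (0.992), Rnf19b (0.99) and Rhox2a (0.989), a homeobox gene of the X-linked Rhox cluster. AU015228 was most like Spaca1 (0.997), which encodes a sperm acrosome protein, Aldh1a2 (0.997), which encodes an enzyme of retinoic acid synthesis, and Gm2016 (0.997). Mean levels of Spaca1 were 0.224, 3.52, 0.355 and 8.49 CPM over the 4 groups. Those of Aldh1a2 were 4.78, 22.5, 5.65 and 35.8 CPM. In both genes, as in AU015228, the means with TSA lay above the means with DMSO in each genotype.

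Lists of related genes show how the single changes fell on genes of similar kind. Up to 4 genes per list are described, those with its largest called differences, so clear patterns in them were favoured by that choice. Of 40 genes listed as X-linked testis and cancer-testis genes, 37 were in the table and 27 were tested. The list is one of names and may hold genes of other chromosomes, such as Tktl2, whose value of 3.12 is the next median. Loss of the methyltransferases in DMSO raised 18 of the 27 and lowered 0 (9.63% of all genes were called higher), with a median log2 fold change of 3.12 against -0.01 over all genes tested. TSA in wild type raised 12 and lowered 0 of them (27.0% of all genes were called higher), with a median of 1.18 against 0.01. Between the single changes, 14 were higher in TKO DMSO and 6 in wild type TSA, where 28.0% and 29.6% of all genes were called in these directions. Magea5 had 1 and 0 counts with DMSO and 1 and 0 with TSA in wild type cells, while its TKO counts were 147 and 141 with DMSO and 251 and 453 with TSA. Magea8 had 0 and 1, 1 and 2, 78 and 136, and 269 and 493 counts. Magea2 and Magea6 had 0 counts in the 4 wild type libraries and 21 and 32, or 17 and 29, counts in TKO DMSO. As in 1700080O16Rik, the 4 TKO libraries of each of these Magea genes lay above the 4 wild type libraries. Reads of near-identical Magea copies may have been split between them, so single counts are uncertain.

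Of 24 listed genes of the 2-cell-like state, in which a few stem cells express transcripts of the early embryo, 21 were in the table and 20 were tested. TSA in wild type raised 20 of 20 (27.0% of all genes were called higher), with a median log2 fold change of 3.39. Loss of the methyltransferases in DMSO raised 1 (9.63% of all genes) and lowered 0, with a median of -0.14. Between the single changes, 18 were higher under TSA alone and 1 under the knockout alone (29.6% and 28.0% of all genes). With TSA present 12 were higher in TKO than in wild type (10.0% of all genes). Zscan4c, of a cluster linked to telomere maintenance, was at 3.14 ± 0.712, 41.7 ± 17.8, 1.59 ± 0.0192 and 65.9 ± 10.98 CPM over the 4 groups (SD, n = 2). Gm8300 stood at 4.00, 77.5, 2.84 and 155 CPM. The 4 genes described here are in neither list, and AU015228 shared with 18 of the 20 a higher level under TSA alone than under the knockout alone. Zscan4e and Zscan4f had the largest differences between the single changes, with log2 values of -5.57 and -4.83 for TKO DMSO against wild type TSA. Zscan4 genes are similar copies, which makes their separate counts uncertain.

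Among 26 genes listed as germline genes under promoter methylation, 25 were tested, and both single changes raised most of them. The knockout in DMSO raised 16 and lowered 1, where 9.63% and 10.7% of all genes were called in these directions. TSA in wild type raised 18 and lowered 1, where 27.0% and 25.9% were. The medians were 1.39 and 1.05 on the log2 scale. Asz1, which acts in germ cell transposon control, was at 0.579, 3.25, 17.4 and 71.4 CPM over the 4 groups, the order of the X-linked genes. Dazl, an RNA-binding protein gene of germ cells, had 10.4, 42.0, 141 and 263 CPM, and Dpep3 had 0.269, 0.992, 3.28 and 11.3 CPM. Brdt, a testis bromodomain gene, was at 1.91, 21.9, 2.36 and 29.6 CPM, the order of AU015228. Its genotype difference in DMSO was not called (edgeR adjusted p 0.631). In TSA it was not called either (log2 fold change 0.44, edgeR adjusted p 0.224), whereas that of AU015228 was.

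The nearest genes showed whether the rises extended along the chromosome. Of 23 genes among the 3 nearest on each side, 14 were tested. TKO in DMSO raised 2 and lowered 4 of the 14 (9.63% and 10.7% of all genes), and TSA in wild type raised 4 and lowered 3 (27.0% and 25.9%). TSA in TKO raised 5 and lowered 1 (30.8% and 27.9%), and TKO with TSA present raised 4 and lowered 2 (10.0% and 8.38%). Beside 1700080O16Rik, Usp26, an X-linked testis gene of the ubiquitin protease family 172 kb away, was at 28.4 ± 17.6, 65.6 ± 25.6, 79.9 ± 11.1 and 237 ± 9.80 CPM over the 4 groups (SD, n = 2). Gpc4, a glypican gene on the other side, had 21.5 and 10.6 CPM in wild type DMSO and TKO TSA. Mbnl3, a splicing regulator gene, had 23.8, 32.0, 14.8 and 48.0 CPM. Mir717 and A630012P03Rik were not tested at their low counts.

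Beside Gm773, 3830403N18Rik, 76.3 kb away, had the same order of groups, at 0.0405, 0.397, 0.499 and 4.61 CPM. Its rise with TSA in TKO was called (edgeR adjusted p 0.000357), and its genotype difference in DMSO was not (0.0667). Zfp449 and Ncrna00086 on the other side stayed between 16.5 and 18.3 CPM in the means of the 4 groups. Around 4930550L24Rik, Gm364, 1502 kb away, rose from 7.23 to 41.6 CPM with TSA, to 110 CPM with the knockout and to 203 CPM with both, while Fgf13 went from 6.52 to 8.80 CPM between wild type with DMSO and TKO with TSA. Around AU015228, Tgm6, 22.9 kb away, was not tested and had at most 0.248 CPM in any group mean. Tgm3 was at 7.56, 10.4, 8.41 and 5.21 CPM, Tmc2 at 0.488, 0.954, 1.11 and 1.08 CPM, and Snrpb at 343, 265, 260.4 and 269 CPM, so none of the named neighbours of AU015228 had a rise near its size.

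**Figure D5:**
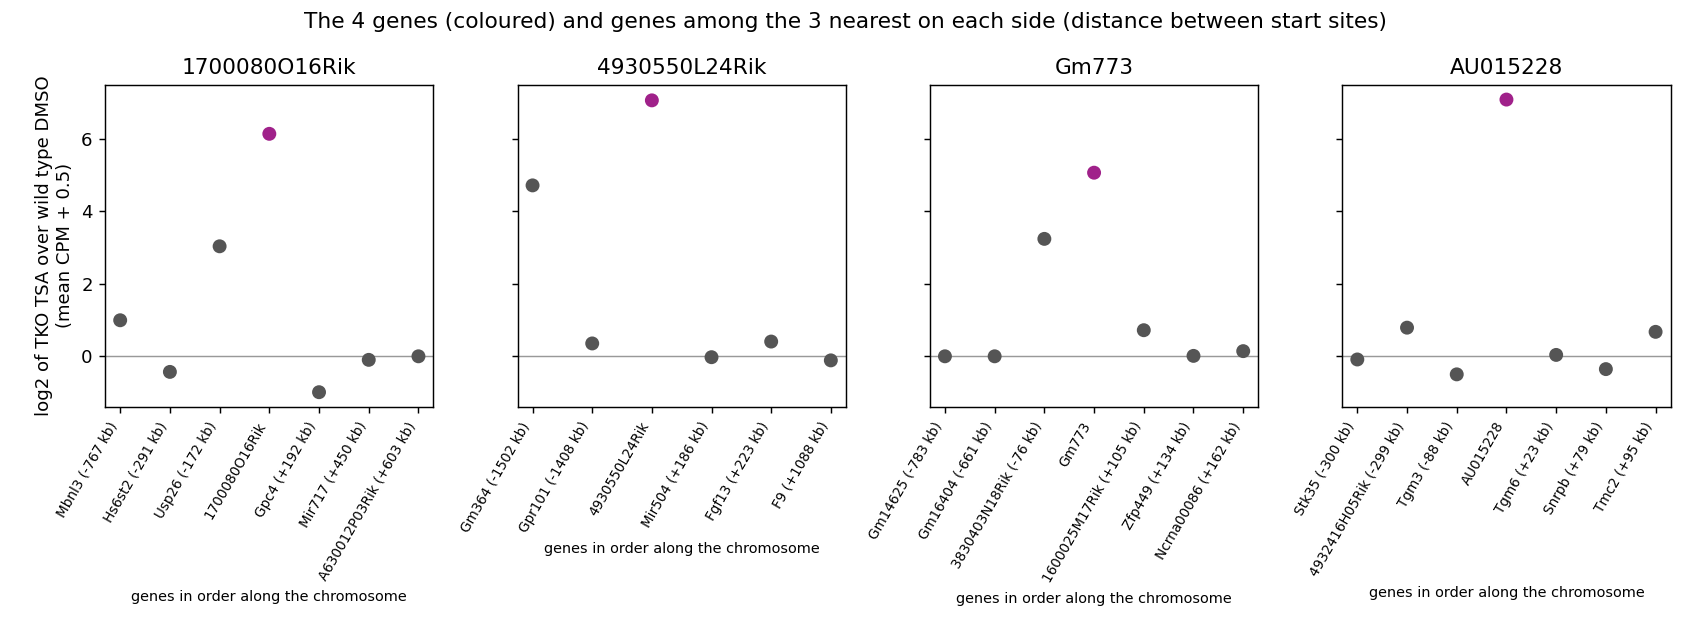
Log2 of the mean CPM plus 0.5 in TKO TSA over that in wild type DMSO (y) for each of the 4 genes (coloured) and 23 genes among the 3 nearest on each side (grey) in chromosome order (x), with the distance between start sites. The 4 genes lie at 5.07 to 7.08, and Usp26, Gm364 and 3830403N18Rik are the grey points above 3.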

How the data were processed

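The authors deposited raw read counts per gene for 8 RNA-seq libraries, with chromosome, exon starts and ends, strand and summed exon length in bases, per the file headers. Ribosomal RNA was depleted and a directional kit used, per the labels' protocols. The submitters' processing notes name TopHat2 2.0.13, featureCounts 1.4.5-p1, edgeR 3.22.3 and mm10. Whether counting used the strand and how reads with several matches were treated is not given in the sources used here.

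The filterByExpr filter kept 15822 of 23420 genes, including all 4 described here. Counts were scaled by TMM, and 1 quasi-likelihood model with a mean per group was fitted in edgeR 4.0.16 (R 4.3.3) to the 8 libraries, with 4 residual degrees of freedom. Tests were two-sided, with Benjamini-Hochberg adjustment over all genes tested and a threshold of 0.05. The interaction subtracts the log2 effect of TSA in wild type cells from its effect in TKO cells. Each SE of a log2 value was worked back from the test, as its size over the square root of the F statistic. Such an SE can understate the uncertainty where a group is near 0 counts. The excess over the sum is TKO TSA minus TKO DMSO minus wild type TSA plus wild type DMSO in CPM, with a standard error from the same fit. In 1 simulated table its 95% interval held the true value for 88% of strongly changed genes and 95.2% of the others, so it is somewhat narrow. The changed genes had base levels of at least 1 CPM. Changed genes as low as the 4 in wild type DMSO were not simulated. An exact permutation test of 2 against 2 libraries cannot go below 0.333. Folds against 0 counts are bounds against 3 counts per library, counting intervals are exact at 95%, and both cover counting error only. RPKM is normalised CPM per kilobase of deposited exon length.

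Groups came from the labels. Chi-square per degree of freedom between replicates was 5.28 to 12.2, so none agreed within sampling noise. Genes named are the 4, genotype and inhibitor checks, the 3 nearest genes on each side and the 3 most similar profiles. The 3 genes next below in the selection order and up to 4 genes per list are named too. Those of a list had the largest log2 differences among its genes called for a single change or between the single changes, so their values chose them. Others are said to be chosen after their values were seen. A neighbouring gene is not reported here. The 4 genes and the lists were chosen with earlier results of these data known. Alternatives were DESeq2 1.42.0, other scalings, no filter, a prior count of 2, a replicate block and leaving out each library.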

Additional observations from a re-analysis of the deposited data

Results flagged for a closer look

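The effect of TSA differed between the genotypes on the CPM scale for each of the 4 genes, which is why they are flagged here. Such an excess also arises where single folds multiply exactly. In 1 simulated table it was called for 100% of genes set to the exact product of 4-fold and 4-fold. Those genes had base levels of at least 1 CPM. The 4 genes lay below that in wild type DMSO, so the rate need not hold for them. The rise with TSA in TKO exceeded the rise with TSA in wild type by 29.1 CPM for 1700080O16Rik, 60.7 CPM for 4930550L24Rik, 13.5 CPM for Gm773 and 70.1 CPM for AU015228, each past the threshold of the additive test, though for Gm773 and AU015228 not after leaving out any of several single libraries. On the log2 scale the same difference passed the threshold for 0 of the 4, with edgeR adjusted p of 0.551 to 0.919 and 0 of 4 below 0.05 unadjusted or in DESeq2. Since wild type DMSO and TKO TSA chose the genes, these values are not independent of the choice.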

How the results depend on the processing

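Of 544 alternative values, 493 kept their direction and side of the threshold or moved little, 31 moved, 15 lost a call and 5 changed sign. The calls and directions of the 4 genes for TKO DMSO against wild type TSA held under each alternative run. The number of genes with a called interaction, 213, was 401 with DESeq2, 488 without a filter and 633 with the replicate block, and the number with a called excess, 275, was 665 without a filter and 1109 with the replicate block, an alternative chosen after seeing the data. The interaction of 1700080O16Rik turned to 0.43 in DESeq2, and a prior count of 2 turned those of 1700080O16Rik, 4930550L24Rik and Gm773 to 2.06, 0.20 and 1.03 and lowered their joint log2 fold changes to 7.99, 8.67 and 6.90, since it pulls folds against empty libraries down. The excess of AU015228 was 71.3 CPM by upper quartile and 73.3 by total counts, called in neither. Replicate numbers share no stated source, and their deviations from group means correlated by number at r 0.0586 to 0.366, so the block is given as a hint; it changed no call of the 4 genes in the 5 contrasts, the interaction or the excess. Leaving out each library gave 1435 to 3328 genes called for TKO in DMSO (1706 without wild type DMSO replicate 1, 1800 and 1435 without TKO DMSO replicate 1 and 2) and 930 to 3399 for TKO in TSA (930 without wild type TSA replicate 1, 1351 without TKO TSA replicate 2). It gave 9 to 392 for the interaction, moved by each library except TKO TSA replicate 1, and 16 to 488 for the excess, moved by each except wild type DMSO replicate 1 and wild type TSA replicate 2. The log2 fold change of Gm773 with TSA in wild type was 5.00 to 5.19, the interaction of AU015228 -0.49 to 1.57, and the excess 9.22 to 17.6 CPM for Gm773 and 41.6 to 97.6 for AU015228. Joint log2 fold changes were 11.85 to 12.09 for 1700080O16Rik, 9.80 to 13.03 for 4930550L24Rik, 10.44 to 11.22 for Gm773 and 8.30 to 10.01 for AU015228. Except for the filter and the smaller number of libraries, the cause was not tested. Depth in wild type DMSO, at 0 to 4 counts per library, limits the product test.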
